A study of Mus musculus with 48 samples.

Results

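The comparison described here asks whether loss of aromatase changes the lacrimal gland of male mice differently from the meibomian glands of male mice. Its members are the 24 arrays of males among the 48 arrays of the series, which carry 12 pools of glands, each hybridized to an Affymetrix and to a CodeLink mouse array. The knockout effect, knockout minus wild type on the log2 scale, was taken within each gland. The effect in the meibomian glands was then subtracted from the effect in the lacrimal gland, and the result is called the gland difference below. A positive value means that the knockout effect was more positive in the lacrimal gland.

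The 4 groups were lacrimal glands of homozygous aromatase knockout males, lacrimal glands of wild type males matched to them in age, and the meibomian glands of both genotypes, with 3 pools of 5 to 8 mice in each. The labels give no strain and no age for these mice, and no treatment was named. The 12 pools of females of the same design entered the fit for the estimate of the spread and are used below for 1 comparison between the sexes. Pools, not single mice, are the replicates, so the spread between mice inside a pool was not measured. CodeLink repeats the same RNA and adds no mice.

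Aromatase converts androgens into estrogens, and males that lack it keep the androgens of the testis without that conversion. The lacrimal gland is built of acinar cells that secrete water and proteins into the tears, while the meibomian glands of the eyelids are built of sebocytes that release lipid. Both glands carry androgen receptors and are known targets of androgens, and some genes of exocrine glands, among them kallikreins of the submandibular gland, are known to be raised by androgens in mice.

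Neither array type had a probe assigned to Cyp19a1, the aromatase gene, alone, so the genotype labels have no check from the targeted gene. Tissue markers matched the gland labels. Lacrimal pools had scaled signals of 6826 to 11880 for Lpo, the lactoperoxidase of tears, and 10150 to 16110 for Pip, a secreted prolactin-inducible protein, against at most 7.16 and 10.5 in meibomian pools. Meibomian pools had 1962 to 2677 for Elovl4, an elongase of very long fatty acids, against at most 7.44 in lacrimal pools. Mc5r, a melanocortin receptor listed as a sebocyte marker, was the exception, with 34.4 to 80.0 in lacrimal and 7.10 to 13.9 in meibomian pools. Before scaling, the array medians of males were 14.7 to 20.8 for lacrimal RNA, against 55.9 to 84.05 for meibomian RNA, and all arrays were scaled to a common median before they were compared. Gland and RNA extraction cannot be told apart in the CodeLink labels, so beyond these markers levels are not compared between glands.

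The 3 lacrimal knockout pools were not alike. The secretory gene Bpifa2, known from the parotid gland, had scaled signals of 8.59, 6864 and 0.786 in knockout and 2660, 4991 and 3420 in wild type lacrimal pools. Smr3a, a salivary gland protein gene, had 0.548, 825 and 0.59 in knockout and 192, 244 and 256 in wild type lacrimal pools, and Cst10 had 1.83, 870 and 1.57 in knockout and 91.4, 239 and 100 in wild type lacrimal pools. Knockout pool 2 therefore carried these genes above every wild type pool. Knockout pools 1 and 3 were at or below 8.59, unlike the other 4 lacrimal pools, and meibomian pools were at or below 3.36 for all 3 genes. They were picked after their values were seen. The summed signal of the 13 salivary list members on the array was 29614 to 32127 in knockout and 29898 to 38254 in wild type lacrimal pools, because Sval2 and Car6, which the lacrimal gland also expresses, make up most of it. Pool 2 also had the lowest signals of the 3 knockout pools for the acinar markers Aqp5 (873 against 1462 and 1761) and Rab3d (444 against 807 and 916). Counts are given with and without pool 2.

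Upstream sequences are shown as the regulatory context of 7 genes. These are the 3 with the largest gland differences in size among genes called on both array types, and 4 kallikreins that rose in the lacrimal gland. Each run is the 250 bases before the annotated start, read 5′ to 3′ on the strand of the gene from RefSeq on build GRCm38.p6, and capitals mark AGAACA or its reverse complement TGTTCT, the core of an androgen response element. Nmu lies at chr5:76363778-76364027, minus strand, Tspan6 at chrX:133898430-133898679, minus strand and B4galt1 at chr4:40853985-40854234, minus strand. Klk1b24 lies at chr7:44187986-44188235, plus strand, Klk1b27 at chr7:44052040-44052289, plus strand, Klk1b21 at chr7:44102042-44102291, plus strand and Klk1b11 at chr7:43995627-43995876, plus strand.
Nmu: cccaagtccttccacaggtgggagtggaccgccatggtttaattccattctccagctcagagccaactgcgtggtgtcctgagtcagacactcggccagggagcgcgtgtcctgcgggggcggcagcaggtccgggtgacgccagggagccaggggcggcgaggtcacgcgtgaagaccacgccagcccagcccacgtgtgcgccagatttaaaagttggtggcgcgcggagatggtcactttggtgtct
Tspan6: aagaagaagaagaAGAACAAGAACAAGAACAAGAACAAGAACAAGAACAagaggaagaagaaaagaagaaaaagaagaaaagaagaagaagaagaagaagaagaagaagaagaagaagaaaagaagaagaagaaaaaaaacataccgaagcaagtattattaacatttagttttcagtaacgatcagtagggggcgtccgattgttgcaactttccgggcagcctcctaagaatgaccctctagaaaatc
B4galt1: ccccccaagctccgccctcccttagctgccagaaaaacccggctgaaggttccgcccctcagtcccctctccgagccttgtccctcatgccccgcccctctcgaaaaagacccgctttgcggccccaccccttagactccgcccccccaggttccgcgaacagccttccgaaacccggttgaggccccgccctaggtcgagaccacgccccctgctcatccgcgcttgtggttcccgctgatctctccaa
Klk1b24: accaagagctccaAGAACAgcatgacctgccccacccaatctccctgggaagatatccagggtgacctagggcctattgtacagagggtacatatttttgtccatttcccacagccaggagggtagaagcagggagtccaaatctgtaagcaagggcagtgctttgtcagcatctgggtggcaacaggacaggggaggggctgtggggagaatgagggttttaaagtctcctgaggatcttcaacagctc
Klk1b27: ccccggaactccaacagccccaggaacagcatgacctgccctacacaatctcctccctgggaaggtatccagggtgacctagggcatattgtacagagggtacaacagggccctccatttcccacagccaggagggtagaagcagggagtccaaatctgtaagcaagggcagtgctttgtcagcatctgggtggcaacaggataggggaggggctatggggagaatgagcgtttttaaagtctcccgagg
Klk1b21: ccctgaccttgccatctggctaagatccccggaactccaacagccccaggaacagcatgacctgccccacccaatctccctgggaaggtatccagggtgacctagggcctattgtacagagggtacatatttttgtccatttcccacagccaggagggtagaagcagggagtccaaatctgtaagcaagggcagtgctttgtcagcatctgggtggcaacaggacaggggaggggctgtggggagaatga
Klk1b11: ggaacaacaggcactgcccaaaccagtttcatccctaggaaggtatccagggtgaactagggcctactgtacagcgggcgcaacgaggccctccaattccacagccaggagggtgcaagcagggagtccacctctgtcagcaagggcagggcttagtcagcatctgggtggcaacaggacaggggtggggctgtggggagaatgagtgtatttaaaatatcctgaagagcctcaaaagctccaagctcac
The core AGAACA was found on either strand in 5284 of 32851 upstream windows of this length (16.1%). Tspan6 held 6 copies, directly after one another inside a purine-rich repeat. The first base of each copy lay 237 to 207 bases before the start of the gene. Klk1b24 held 1 copy, with its first base at 237 bases. The other 5 windows held none. The full androgen palindrome, AGAACA and TGTTCT with any 3 bases between them, was in 3 windows of the genome table (0.00913%) and the estrogen response palindrome, GGTCA and TGACC with any 3 bases between them, in 21 (0.0639%), none of them among these 7. A match is a description of letters only. The kallikrein windows were close copies, with 97.7% identity between Klk1b24 and Klk1b21 over 215 aligned positions, 93% between Klk1b27 and Klk1b21 over 228 and 81.4 to 83.8% between Klk1b11 and the other three.

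In males the knockout effect passed for many genes of the lacrimal gland and for none of the meibomian glands on Affymetrix. Of 6578 genes tested on Affymetrix, 44 had a gland difference at an adjusted p under 0.05, which is 0.669%, with 26 higher (0.395%) and 18 lower (0.274%) in the lacrimal gland. Nmu, Smr2 and Tspan6 stood at the top and B4galt1, Shisa2 and Fgl2 at the bottom. The knockout effect itself passed for 211 genes in the lacrimal gland (3.21%), 130 of them higher (1.98%) and 81 lower (1.23%), and for 0 genes in the meibomian glands (0%), where 311 genes had an unadjusted p under 0.05 in limma. The effects in both glands used a shared estimate of the spread per gene. With the meibomian arrays fitted alone 0 genes passed as well, with 958 at an unadjusted p under 0.05 in limma. A count of 0 does not show that the meibomian glands were unchanged. With the lacrimal arrays fitted alone fewer lacrimal effects passed than in the reported fit, as given below. Without lacrimal knockout pool 2 the gland difference was called for 133 genes, 106 higher and 27 lower, 42 of them among the 44. The count was 29 without lacrimal knockout pool 1, 25 without meibomian knockout pool 1 and 26 without meibomian wild type pool 2.

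**Figure D1:**
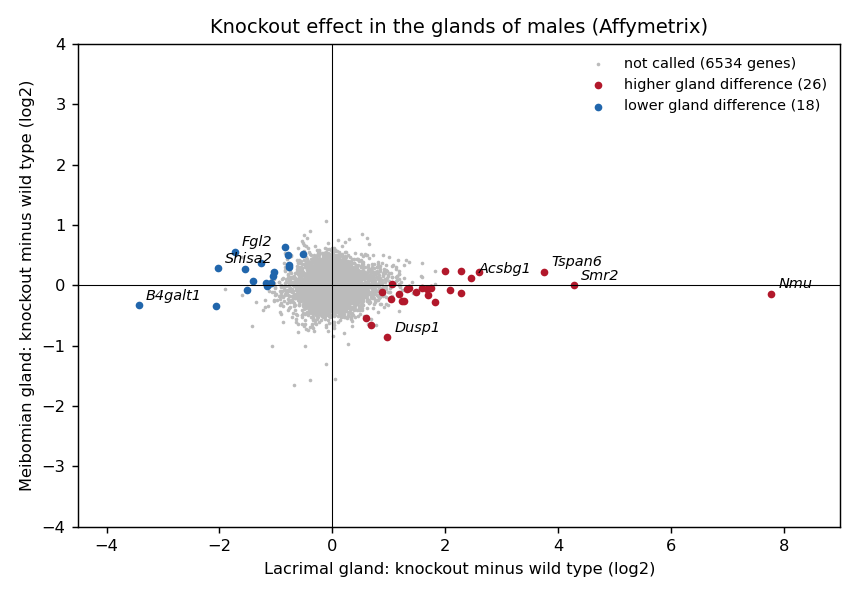
Knockout minus wild type difference in males on Affymetrix, log2, in the lacrimal gland (horizontal axis) against the meibomian glands (vertical axis), 1 point per gene of 6578. The 44 genes called for the gland difference (26 red, 18 blue) lie along the horizontal axis, with lacrimal effects from −3.43 to 7.77 and meibomian effects from −0.86 to 0.63.

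For nearly all of the 44 genes the lacrimal effect was the larger. It passed for 41 of them, all but Dusp1, Tinagl1 and Cyp2b10, and exceeded the meibomian effect in size for 43, all but Cyp2b10, genes named after their values were seen. The lacrimal groups did not overlap for 43 genes, all but Dusp1, against 9.68% of all tested genes. The 44 genes were chosen by a test on these same pools, so the separation of their lacrimal groups follows largely from that choice. The meibomian groups overlapped for 35 and did not for 9, against 15.2% of all tested genes that did not. Across the 6578 genes the lacrimal effect had an SD of 0.36 and the meibomian effect an SD of 0.22, with a correlation of 0.07 between them, where genes are not independent and share their arrays. The median gland difference of all tested genes was −0.03, and 45.8% were positive. In whole glands, fewer cells of a type and less RNA per cell cannot be told apart.

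The peptide gene Nmu, which encodes neuromedin U, had the largest gland difference. Its scaled signals were 2875, 1130 and 1752 in knockout and 6.22, 3.27 and 2.55 in wild type lacrimal pools. Every knockout pool was far above every wild type pool there. In meibomian pools the signals were 239, 382 and 334 in knockout and 400, 372 and 275 in wild type meibomian pools, and the groups overlapped. Nmu rose at least 218-fold in the lacrimal gland (7.77 ± 0.27, log2 ± standard error), a bound because the wild type mean lay under the pseudocount, and its gland difference was 7.91 ± 0.39 (adjusted p = 8.9e-15). On CodeLink the gland difference was 8.47 ± 0.46 (adjusted p = 1.76e-10).

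Smr2, a submaxillary gland gene regulated by androgens, followed on Affymetrix. It had 1076, 343 and 410 in knockout and 17.6, 37.5 and 18.7 in wild type lacrimal pools, so the lacrimal groups did not overlap, while meibomian pools ran from 19.3 to 52.9 in both genotypes together. The gland difference was 4.28 ± 0.60 (adjusted p = 7.92e-05). On CodeLink it was 0.76 ± 0.27 and did not pass (adjusted p = 0.37), with lacrimal values of 11.1, 6.09 and 5.82 in knockout and 4.02, 5.46 and 4.48 in wild type pools. The CodeLink lacrimal groups did not overlap either, but the size differed between the array types.

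Tspan6, a tetraspanin of cell membranes, gave like sizes on both types. Its signals were 667, 272 and 448 in knockout and 19.6, 41.5 and 26.8 in wild type lacrimal pools, without overlap, and 139, 184 and 153 in knockout and 138, 120 and 146 in wild type meibomian pools, with overlap. The gland difference was 3.53 ± 0.36 (adjusted p = 3.38e-07) and 3.50 ± 0.33 on CodeLink (adjusted p = 7.91e-07). Its upstream window is the one with the AGAACA repeat shown above, and the part of that repeat was not tested.

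Dpysl3, a cytoskeletal protein of growing neurites, had 264, 169 and 255 in knockout and 42.4, 38.1 and 49.5 in wild type lacrimal pools. Its meibomian pools lay between 188 and 225 in both genotypes. The gland difference was 2.39 ± 0.26 (adjusted p = 6.81e-07) and 2.23 ± 0.27 on CodeLink. Acsbg1, an acyl-CoA synthetase of very long fatty acids, had 271, 153 and 408 in knockout and 58.7, 44.3 and 30.4 in wild type lacrimal pools, and 436 to 636 in meibomian pools. Its gland difference was 2.34 ± 0.46 (adjusted p = 0.0062) and 2.08 ± 0.31 on CodeLink (adjusted p = 0.00056). For both genes every lacrimal knockout pool was above every wild type pool, and the meibomian groups overlapped.

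Among signalling genes, Il18, an inflammatory cytokine of the interleukin 1 family, had 206, 129 and 142 in knockout and 49.2, 42.3 and 38.3 in wild type lacrimal pools, without overlap. Its meibomian pools ran from 250.5 to 314, and the gland difference was 1.80 ± 0.30 (adjusted p = 0.00109) and 1.52 ± 0.24 on CodeLink (adjusted p = 0.00127). The chemokine gene Cxcl16 had a gland difference of 1.33 ± 0.32 (adjusted p = 0.0455) and 0.89 ± 0.20 on CodeLink (adjusted p = 0.0311). This call was among the least stable of those named, and without lacrimal knockout pool 2 the value was 1.15 with an adjusted p of 0.0591.

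Dusp1, an immediate early phosphatase that switches off MAP kinases, differed from most calls in that its effect passed in neither gland. The same held for Tinagl1 (0.69 ± 0.22 lacrimal, −0.66 ± 0.22 meibomian) and Cyp2b10 (−0.52 ± 0.18 lacrimal, 0.53 ± 0.18 meibomian). Dusp1 had 962, 437 and 914 in knockout and 631, 325 and 246 in wild type lacrimal pools, which overlap. In meibomian pools it had 352, 454 and 332 in knockout and 1003, 663 and 480 in wild type meibomian pools, with every knockout pool below every wild type pool. The effects of 0.97 ± 0.30 in the lacrimal gland and −0.86 ± 0.30 in the meibomian glands did not pass in either (adjusted p = 0.0821 and 0.987), while their difference of 1.82 ± 0.43 did (adjusted p = 0.0358, CodeLink 1.59 ± 0.38, adjusted p = 0.0483). The Dusp1 call was lost in 14 of 23 alternative settings, with adjusted p from 0.000656 to 0.154. Dusp1 was on the list of genes that respond to tissue handling. The 25 tested members of this list had a median gland difference of 0.25, with 18 positive, against 45.8% of all tested genes. Of these members 1 was called, Dusp1 itself, against 0.669% of all tested genes. The part of handling was not tested.

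Other enzymes with a positive gland difference were Sult5a1, of the sulfotransferase family (1.53 ± 0.34, CodeLink 2.70 ± 0.26), and Aldh1l1, a folate enzyme (1.48 ± 0.32, CodeLink 1.04 ± 0.33 and not passing). The protease inhibitor gene Serpina3n stood at 1.02 ± 0.23 (CodeLink 1.28 ± 0.50 and not passing). Of genes not tested on CodeLink, the phosphoinositide phosphatase gene Mtm1 (2.37 ± 0.40), the transglutaminase gene Tgm2 (2.15 ± 0.43), the secreted olfactomedin-like gene Olfml3 (2.09 ± 0.43) and Cstf2, a factor of mRNA 3′ end formation (2.04 ± 0.27), were the largest. Leaving out a pool or changing a setting ended the call of Serpina3n in 9 of 23 settings, of Sult5a1 and of Aldh1l1 in 5 each, and of Olfml3 in 2. Knockout pools were above wild type pools in the lacrimal gland on Affymetrix for all 7 of these genes. The meibomian groups overlapped for 6, the exception being Sult5a1. Not tested on CodeLink can also mean a probe outside the filter there. With no filter on CodeLink, Mtm1 stood at −0.35 ± 0.49, near the pseudocount, and Olfml3 at 1.77 ± 0.46, and neither passed. Further positive calls included the iron-carrier binding protein gene Lcn2 (1.74 ± 0.42), whose call was lost with no filter (adjusted p = 0.0836), and the metallothionein gene Mt1 (1.27 ± 0.29).

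B4galt1, the galactosyltransferase that also forms lactose synthase, led the decreases. Its signals were 37.1, 73 and 18.3 in knockout and 472, 439 and 424 in wild type lacrimal pools. In meibomian pools they were 174, 180 and 179 in knockout and 210, 237 and 226 in wild type meibomian pools. Knockout pools lay below wild type pools in both glands, 10.8-fold lower in the lacrimal gland (−3.43 ± 0.24) and by −0.33 ± 0.24 in the meibomian glands, which did not pass. The gland difference was −3.10 ± 0.34 (adjusted p = 7.6e-07) and −3.05 ± 0.27 on CodeLink (adjusted p = 3.42e-07).

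Shisa2, an inhibitor of Wnt and FGF receptor maturation, had 2.74, 22.7 and 22 in knockout and 83, 60.7 and 56.6 in wild type lacrimal pools. Knockout pool 1 was far below the other knockout pools, and none reached the wild type range. The gland difference was −2.32 ± 0.43 (adjusted p = 0.00364), and −1.99 ± 0.90 on CodeLink did not pass. Fgl2, a fibrinogen-like protein of immune cells, had 71.3, 83.3 and 69.8 in knockout and 245, 276 and 252 in wild type lacrimal pools. It had 198, 200 and 129 in knockout and 161, 94 and 103 in wild type meibomian pools, where the groups overlapped and the effect of 0.56 ± 0.19 did not pass. The gland difference of Fgl2 was −2.29 ± 0.27 (adjusted p = 4.83e-06), and it was not tested on CodeLink.

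**Figure D2:**
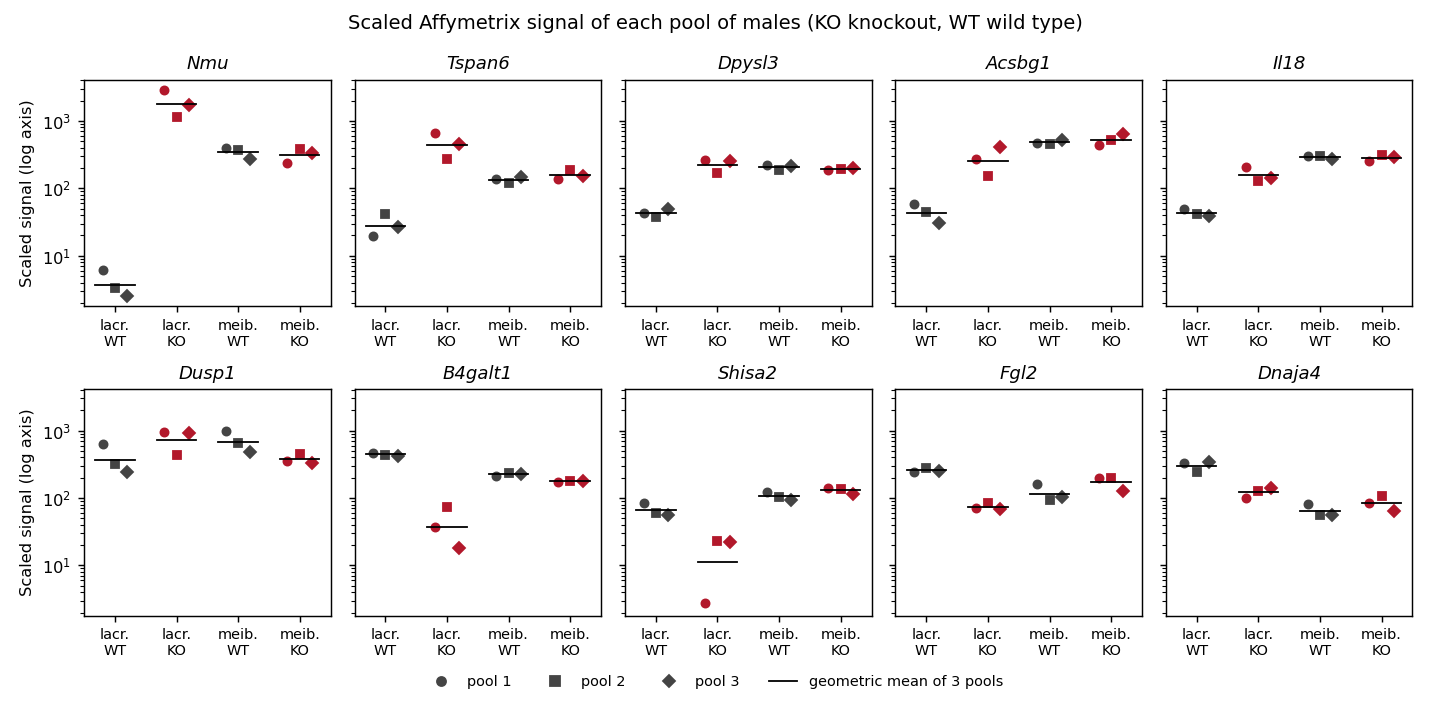
Scaled Affymetrix signal (log axis) of 10 named genes in the 12 pools of males, with lacrimal wild type and knockout pools on the left of each panel and meibomian pools on the right. Symbols stand for pools 1, 2 and 3, and bars for the geometric mean of 3 pools. Lacrimal knockout and wild type pools are apart for every gene shown except Dusp1.

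The other named decreases were smaller. Cmya5, a protein of striated muscle, had 7.68, 12.5 and 7.87 in knockout and 36, 27.7 and 43.4 in wild type lacrimal pools and a gland difference of −1.81 ± 0.34 (CodeLink −1.43 ± 0.32, adjusted p = 0.0346). Of 24 skeletal muscle list members on the array only 2 were tested, the summed signal of the list was 187 to 384 in knockout and 265 to 306 in wild type lacrimal pools, and it was 21287 to 25970 in meibomian pools. The imprinted zinc finger gene Plagl1 (−1.71 ± 0.33), the tetraspanin gene Tspan12 (−1.46 ± 0.33), the polyamine acetyltransferase gene Sat1 (−1.26 ± 0.24) and the matrix protein gene Itih5 (−1.20 ± 0.28) passed on Affymetrix with the same sign but no call on CodeLink, where Plagl1 stood at −0.11 ± 0.18. Dnaja4, an Hsp40 co-chaperone (−1.64 ± 0.29), the lysosomal membrane protein gene Gpr155 (−1.47 ± 0.32) and the scaffold protein gene Homer2 (−1.44 ± 0.26) were not tested on CodeLink. The call was lost in 10 of 23 settings for Itih5, in 7 for Tspan12 and in 4 for Gpr155. In lacrimal pools on Affymetrix knockout lay below wild type without overlap for all of these 8 genes. With no filter on CodeLink, Dnaja4 stood at −0.81 ± 0.60 without passing, and its lacrimal groups overlapped.

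CodeLink gave a repeat of the same pools on other probes. Of 5686 genes tested there, 47 had a gland difference that passed (0.827%), 34 higher and 13 lower. The lacrimal effect passed for 142 genes (2.5%) and the meibomian effect for 1 (0.0176%), the small heat shock protein gene Cryab, at −1.66 ± 0.28. Cryab was at −1.75 ± 0.28 in the lacrimal gland on CodeLink, and its meibomian effect of −0.33 ± 0.21 on Affymetrix did not pass. Of the 44 Affymetrix calls 20 were tested on CodeLink, 18 of them had the same sign and 10 passed on both. The 2 with the opposite sign were Tirap, a Toll-like receptor adaptor (1.41 ± 0.25 against −0.28 ± 0.23), and Krit1 (−1.29 ± 0.31 against 0.12 ± 0.32), named after their values were seen. The Krit1 call was lost with no filter (adjusted p = 0.0902). Of the 47 CodeLink calls 26 were tested on Affymetrix and 23 had the same sign. Abhd5, a lipase co-activator, was 2.26 ± 0.28 on CodeLink and 0.07 on Affymetrix, and the helicase gene Dhx8 was 3.37 ± 0.29 and 0.06, so their calls rest on 1 probe of 1 array type.

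**Figure D3:**
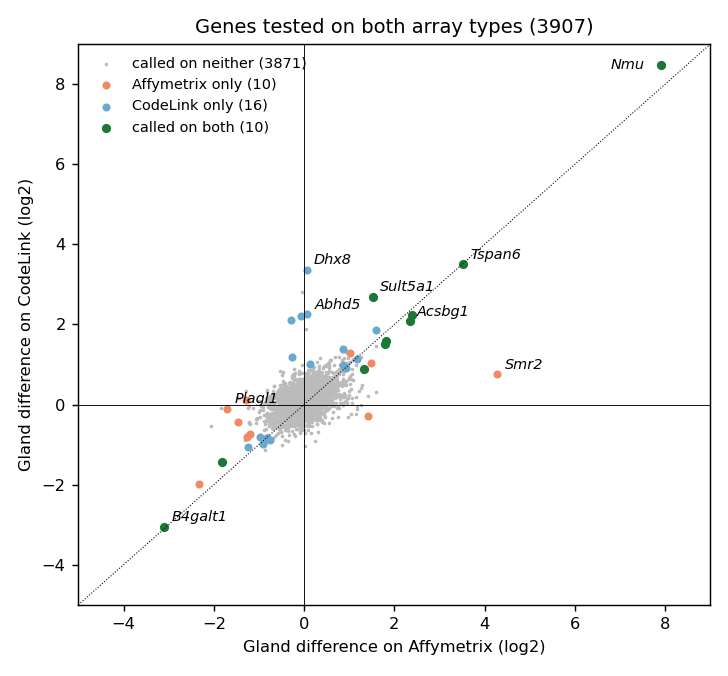
Gland difference in males on Affymetrix (horizontal axis) and CodeLink (vertical axis), log2, for the 3907 genes tested on both, with the dotted line at equal values. Colours mark where genes were called, 10 on both, 10 on Affymetrix only and 16 on CodeLink only. Nmu, Tspan6 and B4galt1 lie near the line, while Smr2 and Dhx8 lie far from it.

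The filter kept genes in the top 60% in both glands, by mean signal over all pools of a gland. A gene with a low mean in either gland was removed, but one low in some pools could pass through others where it was high. Nmu passed although its wild type lacrimal mean lay under the pseudocount. All 14 measured kallikreins were among the genes removed. These secreted serine proteases are known as androgen-responsive genes of the mouse submandibular gland. Klk1b27 had 3233, 905 and 635 in knockout and 0.731, 0.933 and 0.213 in wild type lacrimal pools, Klk1b24 had 2556, 966 and 1260 in knockout and 62.9, 60.7 and 44.2 in wild type lacrimal pools and Klk1b21 had 734, 282 and 204 in knockout and 25.8, 19.9 and 4.25 in wild type lacrimal pools. Knockout pools were above wild type pools for all 3, and meibomian signals stayed at or under 8.56. With no filter on signal 54 of 12394 genes were called (0.436%), and 4 of the 14 kallikreins were among them. Klk1b24 and Klk1b21 had gland differences of 5.10 ± 0.55 and 4.48 ± 0.71 (adjusted p = 1.58e-06 and 0.000871). Their meibomian signals were low, so a meibomian effect could hardly be measured. The gland differences of both genes mostly restate their lacrimal effects of 4.62 ± 0.39 and 4.26 ± 0.50. On Affymetrix Klk1b27 was at least 249-fold and Klk1b1 at least 21.8-fold higher in knockout lacrimal pools (adjusted p of the gland difference 1.97e-10 and 3.22e-05). These are bounds because their wild type means lay under the pseudocount there. The lacrimal effect passed for 6 of the 14, all higher, against 277 of 12394 genes with no filter, 172 of them higher. The lacrimal groups of 8 kallikreins overlapped. With the filter 9.68% of all tested genes had lacrimal groups that did not overlap. Klk1b11, with 1904, 878 and 982 in knockout and 468, 328 and 372 in wild type lacrimal pools, stood at 1.63 ± 0.44 without passing (adjusted p = 0.129) although its lacrimal effect of 1.60 ± 0.31 passed. On CodeLink, where 13 were measured, 3 were called with no filter, Klk1b27, Klk1b21 and Klk1b1. With the filter 0.827% of all genes tested there were called. The lacrimal increase on CodeLink was smaller, 44.2-fold for Klk1b27 and 4.99-fold for Klk1b1, so the bounds above hold for Affymetrix only. Klk1b24 stood at 4.01 ± 1.41 there without passing (adjusted p = 0.40), and Klk1b21, tested in the main comparison too, at 2.67 ± 0.41. The Klk1b genes are near-identical copies, so probes may share signal between them and the single members are uncertain.

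Other genes outside the filter were called as well. Ddc, the decarboxylase of dopamine and serotonin synthesis, had 6639, 3012 and 5572 in knockout and 4.94, 27.1 and 15.7 in wild type lacrimal pools, and 1.59 to 3.93 in meibomian pools. Its gland difference was 7.97 ± 0.61 with no filter (adjusted p = 2.25e-09). Every meibomian signal of Ddc lay under the pseudocount, which keeps the fitted meibomian effect small (0.09 ± 0.43). The gland difference of Ddc therefore restates its lacrimal effect of 8.06 ± 0.43, and a response in the meibomian glands could not be measured. The seminal vesicle protein genes Svs2 (5.25 ± 0.52) and Svs4 (4.18 ± 0.60), the cadherin gene Pcdh20 (3.63 ± 0.46), the growth factor gene Bmp6 (3.32 ± 0.47) and Sult1e1, which sulfates estrogens (2.27 ± 0.48), were also called higher. Mug1, a protease inhibitor of the macroglobulin family, was called lower (−2.36 ± 0.54), with 20.1, 14 and 7.67 in knockout and 93.4, 130 and 72.7 in wild type lacrimal pools. Gp2 and Krt19, genes of secretory granules and of duct epithelium, were called at 3.30 ± 0.57 and 2.46 ± 0.46. With no filter on CodeLink, Gp2 stood at 1.57 ± 0.48 and Krt19 at 1.22 ± 0.37, and neither passed. Ddc (5.84 ± 0.59), Sult1e1 (2.63 ± 0.34) and Mug1 (−1.92 ± 0.41) passed there. The meibomian signals of Ddc lay under the pseudocount on CodeLink too. Gp2 had 81.7, 188 and 67.6 in knockout and 2.56, 9.64 and 1.7 in wild type lacrimal pools, and 720 to 1480 in meibomian pools. Krt19 had 23.8, 25.7 and 18.5 in knockout and 2.74, 1.4 and 0.851 in wild type lacrimal pools. The wild type mean of Krt19 lay under the pseudocount, as did the Gp2 values of 2.56 and 1.7. Both fitted values therefore depend on the pseudocount.

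Immune gene lists had positive median gland differences with few single calls. Of 25 macrophage and dendritic cell genes 23 had a positive gland difference, against 45.8% of all tested genes. Their median was 0.52 against −0.03 over all tested genes, and 0 passed. In the lacrimal gland 25 of 25 were positive, against 47.3% of all tested genes, with a median of 0.72, and 7 rose, against 1.98% of all tested genes, among them Clec7a (1.16 ± 0.23), Fcgr2b (1.01 ± 0.22) and Lyz2 (0.95 ± 0.19), a receptor for fungal glucans, an Fc receptor and a lysozyme. In the meibomian glands 22 of 25 were positive, against 52.5% of all tested genes, with a median of 0.25, and 0 passed. Their summed signal was 4226 to 5190 in knockout and 2366 to 3060 in wild type lacrimal pools, without overlap, and 5258 to 7151 against 4747 to 6924 in meibomian pools. Without lacrimal knockout pool 2 the median gland difference was 0.41. These lists were not tested as sets.

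Cytokines and chemokines had a median gland difference of 0.72 over 12 genes, with 10 positive, against 45.8% of all tested genes. Il18 and Cxcl16 were the 2 called, against 0.669% of all tested genes. On CodeLink 13 of 15 were positive, against 56.2% of all genes tested there, and 2 were called higher. Ccl4, a chemokine for macrophages and lymphocytes not tested on Affymetrix, was called lower there (−1.59 ± 0.32, adjusted p = 0.0172). In the lacrimal gland on Affymetrix 5 of 12 rose, against 1.98% of all tested genes, which added Ccl8 (1.36 ± 0.29), Ccl9 (1.15 ± 0.27) and Ccl6 (1.13 ± 0.26), ligands that attract myeloid cells. The gland differences of these 3 chemokines were 0.98 ± 0.41, 0.99 ± 0.38 and 0.85 ± 0.36 and did not pass. Class II antigen presentation genes were positive for 6 of 6 (median 0.49) and class I genes for 10 of 10 (median 0.45), with 0 called in each. Of 10 complement and acute phase genes 9 were positive with a median of 0.39, and Lcn2 was called with the filter and not without it. Over all tested genes 45.8% were positive and 0.669% were called.

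Lipid genes, the working set of the sebocyte, had 1 call in 4 lists, where 0.669% of all tested genes were called. Wax ester, cholesteryl ester and triglyceride genes had a median gland difference of 0.19 over 15 genes with Acsbg1 as the 1 call. The medians were 0.03 for 19 genes of fatty acid synthesis, −0.03 for 22 of cholesterol synthesis and −0.10 for 21 of peroxisomes and beta-oxidation, with 0 called in each. Secretory pathway and unfolded protein response genes had 10 of 34 positive, against 45.8% of all tested genes, with a median of −0.15 and 0 calls. Without lacrimal knockout pool 2 the median was 0.01. Tear protein genes had a median of −0.01 over 13 with 0 called on Affymetrix. On CodeLink 9 of 12 were positive, against 56.2% of all genes tested there, with a median of 0.32. Wfdc12, not tested on Affymetrix, was called higher there (2.29 ± 0.53, adjusted p = 0.0406), where 0.827% of all tested genes were called. In the lacrimal gland on Affymetrix 2 rose, Lyz1 and Lyz2, against 1.98% of all tested genes. Another 2 fell, against 1.23%, the immunoglobulin receptor gene Pigr (−0.93 ± 0.25) and the mucin-like gene Dmbt1 (−1.06 ± 0.26). The meibomian value of Dmbt1 was −1.01 ± 0.26 and did not pass. Androgen-responsive genes other than kallikreins had 9 of 15 positive gland differences, against 45.8% of all tested genes, with a median of 0.13. Nmu and Smr2 were the 2 calls, against 0.669% of all tested genes. The lists were chosen with earlier results of these data known, so this count does not test the list. In the lacrimal gland 6 of the 15 had a positive effect, against 47.3% of all tested genes, with a median of −0.14. Estrogen-responsive genes had 4 of 11 positive gland differences, a median of −0.19 and 0 calls. Their lacrimal effect was positive for 3 of 11, with a median of −0.15.

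**Figure D4:**
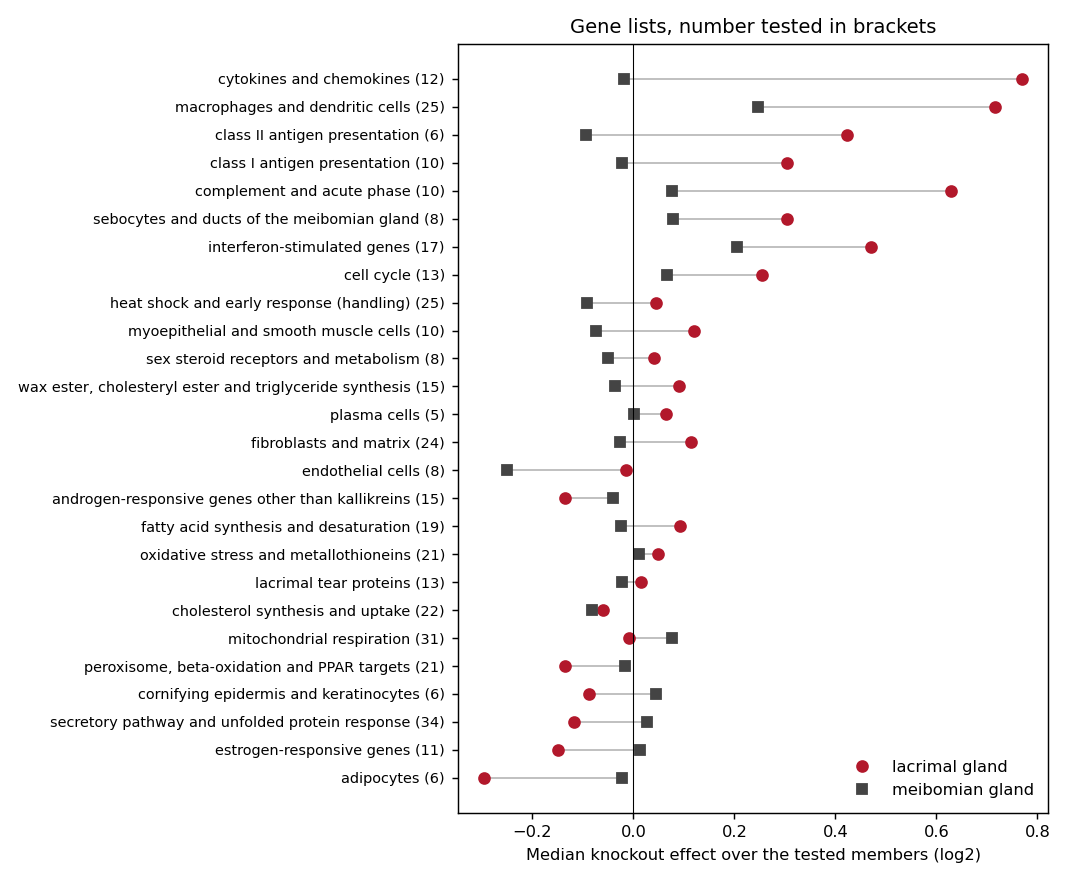
Median knockout effect in males (log2, Affymetrix) in the lacrimal gland (circles) and the meibomian glands (squares) for the 26 gene lists with at least 5 tested members, sorted by the median gland difference. Lacrimal medians run from −0.29 for adipocyte genes to 0.77 for cytokines and chemokines, and meibomian medians from −0.25 to 0.25.

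Genes near the targeted gene appeared among the calls. Among the 25 tested genes on each side of Cyp19a1 on its chromosome 3 of 50 were called for the gland difference, Il18, Acsbg1 and Dnaja4, and among 100 on each side 5 of 200, with Tirap and Tmprss4 added, against 0.669% of all tested genes. Il18 and Dnaja4 also had a gland difference that passed in females. The part of sequence flanking the targeted locus was not tested.

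Females were compared in the same way. They had 149 genes that passed (2.27%), 98 higher (1.49%) and 51 lower (0.775%). Of the 44 male calls 24 had the same sign in females, 5 passed there too, namely Il18, Dnaja4, Plagl1, Serpina3n and Krit1. The difference between the sexes itself, male minus female, passed for 46 genes (0.699%), 15 higher (0.228%) and 31 lower (0.471%), and 15 of the 46 were among the 44. Without lacrimal knockout pool 2 it was called for 80 genes.

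Nmu was 7.14 ± 0.55 higher in the male gland difference than in the female one (adjusted p = 9.99e-10), where the female value was 0.77 ± 0.39. Smr2 (5.67 ± 0.85), Tspan6 (3.49 ± 0.51) and Dpysl3 (2.02 ± 0.36) were also higher, with female values of −1.39 ± 0.60, 0.03 ± 0.36 and 0.37 ± 0.26 that did not pass. B4galt1 (−3.49 ± 0.48) and Shisa2 (−2.91 ± 0.60) were lower in males, with female values of 0.40 ± 0.34 and 0.59 ± 0.43. For these 6 genes the gland difference passed in males and not in females.

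For 6 further genes it passed in females and not in males. Wwox, an oxidoreductase (−2.81 ± 0.37), the arginase gene Arg1 (−2.80 ± 0.38), the death receptor gene Fas (−2.73 ± 0.65) and Pmvk, the phosphomevalonate kinase of cholesterol synthesis (−2.34 ± 0.48), were lower in males. Their female gland differences of 2.30 ± 0.26, 1.83 ± 0.27, 2.10 ± 0.46 and 2.29 ± 0.34 passed, while the male values ran from −0.97 ± 0.27 for Arg1 to −0.04 ± 0.34 for Pmvk and did not. The Fas call was lost in 15 of 34 alternative settings. Tceal8 (2.24 ± 0.40) and the choline transporter-like gene Slc44a3 (2.14 ± 0.46) were higher in males, with female values of −1.42 ± 0.28 and −1.29 ± 0.32 that passed. Across all tested genes the male and female gland differences correlated at 0.15.

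**Figure D5:**
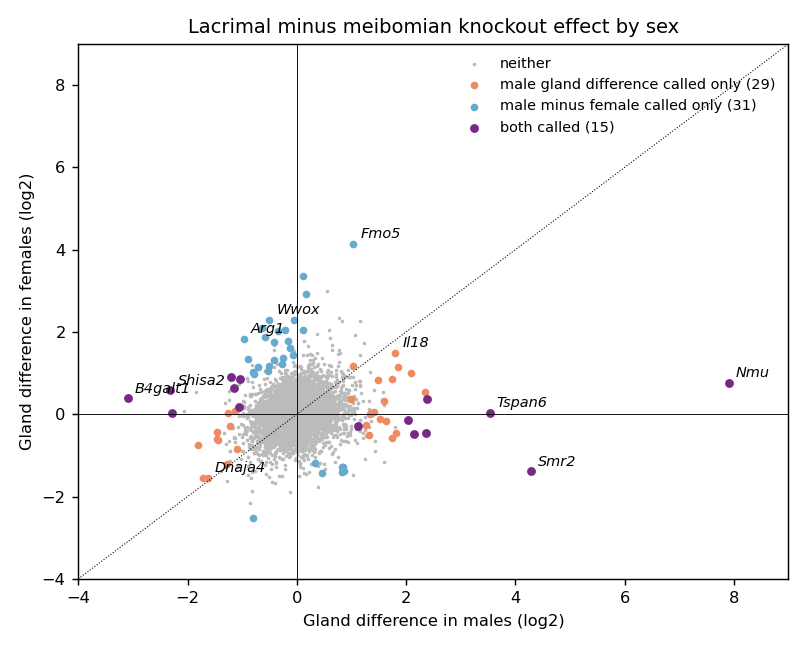
Gland difference in males (horizontal axis) against females (vertical axis), log2, Affymetrix, 1 point per gene of 6578, with the dotted line at equal values. Of the coloured genes 29 were called for the male gland difference only, 31 for male minus female only and 15 for both. Nmu, Tspan6 and B4galt1 lie along the horizontal axis, and Il18 and Dnaja4 near the line.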

How the data were processed

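Total RNA of pooled glands (2 µg) was hybridized to Affymetrix 430A and CodeLink 20K arrays, each with 1 colour. The deposited values are intensities, made by the authors with GCOS for Affymetrix per the submitters' processing notes, and scaled intensities per the file headers for CodeLink. Other upstream steps are not given in the sources used here. Deposited CodeLink values matched the scaled array files within 0.1% for 99.8% of spots. Lacrimal RNA was purified with Trizol and spin columns. For meibomian RNA the CodeLink labels give Trizol alone and the Affymetrix labels the same method as for lacrimal RNA.

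Arrays were scaled to a common median, a pseudocount of the 20th percentile of positive values was added (4.34 on Affymetrix, 0.268 on CodeLink) and log2 was taken, which understates changes of low genes. Of 22690 Affymetrix probe sets 20393 named 1 gene and 691 several, the latter left out. The brightest probe of a gene was used, and genes in the top 60% by mean in both glands were tested. limma 3.58.1 in R 4.3.3 (lmFit, eBayes with trend) was fitted to 8 group means over the 24 arrays of a type, with Benjamini-Hochberg adjustment over all tested genes and calls at an adjusted p under 0.05. Values after ± are standard errors. The fit was tested on simulated data. Upstream sequences came from a RefSeq table.

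The named genes were the largest calls per direction with the same sign on CodeLink, up to 12 each, up to 4 per direction not tested on CodeLink, and members of gene lists. For the sexes they were the 6 largest per direction with the same sign on CodeLink. The members, lists and tests were chosen with earlier results of these data known. Correlations of same-numbered pools across glands ran from −0.10 to 0.22 over 12 pairs, 3 of them over 0.1, so pairing by pool number, which required every pair over 0.1, was not adopted for the reported fit. The number of arrays limits the precision.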

Additional observations from a re-analysis of the deposited data

Results flagged for a closer look

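The values here stood out because the knockout effect differed between the glands of males in a test of the difference itself (limma, log2). The positive gland differences were 7.91 for Nmu, 4.28 for Smr2, 3.53 for Tspan6, 2.39 for Dpysl3, 2.37 for Mtm1, 2.34 for Acsbg1, 2.15 for Tgm2, 2.09 for Olfml3 and 2.04 for Cstf2. Smaller ones were 1.82 for Dusp1, 1.80 for Il18, 1.53 for Sult5a1, 1.48 for Aldh1l1, 1.33 for Cxcl16 and 1.02 for Serpina3n. The negative ones were −3.10 for B4galt1, −2.32 for Shisa2, −2.29 for Fgl2, −1.81 for Cmya5, −1.71 for Plagl1, −1.64 for Dnaja4, −1.47 for Gpr155, −1.46 for Tspan12, −1.44 for Homer2, −1.26 for Sat1 and −1.20 for Itih5.

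A second set stood out because the gland difference of males differed from that of females by its own test. Male minus female values were 7.14 for Nmu, 5.67 for Smr2, 3.49 for Tspan6, 2.24 for Tceal8, 2.14 for Slc44a3 and 2.02 for Dpysl3. Negative values were −3.49 for B4galt1, −2.91 for Shisa2, −2.81 for Wwox, −2.80 for Arg1, −2.73 for Fas and −2.34 for Pmvk. The male and female gland differences share no arrays but share the estimate of the spread per gene. Male minus female values use the same male arrays as the first set, so they are no independent repeat of it.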

How the results depend on the processing

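The count of genes with a male gland difference on Affymetrix, 44 as reported, was 97 with quantile normalization, 82 with 75th percentile scaling (69.5% higher, against 59.1%) and 27 with male pools alone. With no filter 72.2% of calls were higher. Leaving out 1 pool gave 25 to 133. The CodeLink count of 47 was 91 with every probe tested on its own and 26 to 58 with 1 pool left out, the low counts coming without lacrimal knockout pool 1 (26) or meibomian knockout pool 1 (30) or 2 (30) or wild type pool 1 (28) or 2 (27). The lacrimal count of 211 was 327 with quantile normalization, 318 with 75th percentile scaling, 113 with male pools alone and 79 with lacrimal arrays alone. It was 126 to 346 with 1 pool left out, with 135 without knockout pool 1, 346 without knockout pool 2 and 126 without wild type pool 3. The meibomian count of 0 was 1 with no filter and 2 with every probe on its own, and 0 to 0 with 1 pool left out. The male minus female count of 46 was 97 with quantile normalization, 106 with 75th percentile scaling and 37 to 80 with 1 pool left out. Its share of higher calls, 32.6%, was 44.3% with quantile normalization, 48.1% with the pseudocount added before centring and 42.6% with a 40th percentile pseudocount. The causes were not tested. With the pool number as a replicate block the counts were 43 for the gland difference, 62 on CodeLink, 223 for the lacrimal effect, 0 for the meibomian effect and 52 for male minus female. With a block within genotype and sex they were 42, 37 on CodeLink and 59. Cxcl16 lost its call under both blocks. Same-numbered pools of knockout males correlated across glands at 0.10, 0.20 and 0.22, against −0.19 to 0.03 for other numbers, and those of wild type males at −0.10, 0.01 and 0.08. A normexp background on CodeLink, chosen after seeing the data, gave 49. The 26 genes named for the gland difference and the 12 named for male minus female kept their direction under the alternatives run for them. List members and genes outside the filter were not run through all alternatives. Cxcl16 lost its call in 15 of 23 settings and Dusp1 in 14, and Fas lost its male minus female call in 15 of 34. Scan and slide were not run as batches, since the array files used here give neither.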

Other observations

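CodeLink called genes that Affymetrix did not test or did not name. Olah, a thioesterase of medium-chain fatty acids, had a gland difference of 4.21 ± 0.45, and Ass1, the argininosuccinate synthase of arginine synthesis, of 3.90 ± 0.32. Both had higher signals in all 3 knockout than in all 3 wild type lacrimal pools. Cyp2a5, a cytochrome P450, was lower at −2.04. These values have no second probe here.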
